A study of Rattus norvegicus with 15 samples.

Results

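Receptors for amines, tastants and formyl peptides were followed in the olfactory epithelium of the rat, the odor-sensing lining of the nose, which holds olfactory neurons and their supporting cells. Of the 41012 probes on the array, 34 belonged to these families. A probe was taken when its gene name began as those of the trace amine-associated (Taar), taste (Tas1r, Tas2r) or formyl peptide (Fpr) receptors do, which held for 29 probes, or when its description named such a receptor, which added 5. There were 15 Taar probes, 3 probes for type 1 taste receptors, 13 for type 2 taste receptors and 3 for formyl peptide receptors. Each gene had a single probe.

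RNA from 8 Brown Norway rats aged 6 weeks, 4 males and 4 females, had been hybridized to 15 arrays, 7 for males and 8 for females. The nostrils of a rat, A and B, were measured separately in 7 rats, and male 1 gave nostril A alone. All rats were of this inbred strain, and the RNA is that of the whole tissue, so fewer cells of a type and less RNA per cell cannot be told apart. By their barcodes the arrays came from 4 slides: males 1 and 2 shared slide 1 with female 3A, the arrays of females 3B, 4A and 4B made up slide 2, and slides 3 and 4 carried males 5 and 6 and females 7 and 8.

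Taars are a small family of chemosensory receptors beside the large family of olfactory receptors (OR). Apart from Taar1, they are known as receptors of olfactory neurons that sense volatile amines, such as those of urine and decaying matter, and a neuron that makes a Taar makes no OR. Type 1 taste receptors work in pairs, with Tas1r3 as the shared partner for sweet (Tas1r2) and umami (Tas1r1) taste, and type 2 receptors sense bitter compounds. Formyl peptide receptors sense bacterial peptides on phagocytes, and several rodent members are known from neurons of the vomeronasal organ.

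The labelled tissue carried its markers. Of 20 probes of the olfactory neuron list (the receptor-coupled cAMP pathway with its marker Omp), 19 were expressed, that is, well above background on at least 11 of the 15 arrays, among them Gnal (the G protein of olfactory neurons), Adcy3 (the adenylyl cyclase) and Cnga2 and Cnga4 (subunits of the cAMP-gated channel). Omp, made by mature olfactory neurons, lay between 7.34 and 7.69 on the log2 scale of signal over array median. All 3 sustentacular cell probes, for Cyp2g1, Ugt2a1 and Sult1c1, were expressed too. Array medians spanned 57.4 to 83.4 intensity units, with 26233 to 28741 probes well above background.

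The Taar probes lay in a single cluster on chromosome 1, within chr1:21803498-22048381 of build rn3, a stretch of 244.9 kb. Taar9 opened the cluster, the Taar8 and Taar7 genes followed, and Taar1 closed it. Exons, introns and untranslated regions are not given by the array annotation. The probes on which the Taar results turn are shown whole, 5′ to 3′. Taar7b, Taar7e, Taar9 and Taar5 were detected on all arrays and Taar1 on none.

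Taar7b: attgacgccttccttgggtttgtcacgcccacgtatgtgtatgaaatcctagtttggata
Taar7e: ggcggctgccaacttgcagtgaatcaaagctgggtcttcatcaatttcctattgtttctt
Taar9: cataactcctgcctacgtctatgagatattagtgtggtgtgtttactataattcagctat
Taar5: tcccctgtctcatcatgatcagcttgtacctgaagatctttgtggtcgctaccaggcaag
Taar1: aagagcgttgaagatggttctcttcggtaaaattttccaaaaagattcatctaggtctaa

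Taar7b spans chr1:21970099-21970158, Taar7e chr1:21930108-21930167, Taar9 chr1:21803498-21803557, Taar5 chr1:22000263-22000322 and Taar1 chr1:22048322-22048381. Members of the Taar7 group have closely related sequences, so the member probes were set against each other without gaps, over the whole of their overlap. The pair most alike was Taar7g and Taar7d, whose probes share a window of 51 bases. In that window 42 bases match, and the 9 that differ are in capitals.

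Taar7g: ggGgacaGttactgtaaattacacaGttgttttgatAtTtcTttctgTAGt
Taar7d: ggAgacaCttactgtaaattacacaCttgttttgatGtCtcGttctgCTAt

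With 82.4% identity over this window, the Taar7g probe was detected on 12 arrays and the Taar7d probe on 0. Taar8c and Taar7h, which were both expressed, had 35 of 48 bases alike, and the bases that differ are again in capitals.

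Taar8c: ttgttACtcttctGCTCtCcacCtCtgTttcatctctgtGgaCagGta
Taar7h: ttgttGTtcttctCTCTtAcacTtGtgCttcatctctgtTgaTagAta

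Whether a transcript of 1 Taar7 gene binds the probe of another was not tested, since no rat genome of the array's build was used here.

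The first question was which of these receptors are detectable in the tissue. Of the 34 probes, 9 (26.5%) were expressed, 5 (14.7%) were weakly expressed, that is, detected on 1 to 10 arrays, and 20 (58.8%) were detected on none. Over the whole array the share expressed was 65.1%, and over the 1138 OR probes it was 64.5%. The families differed in their counts: 8 of 15 Taar probes, 1 of 3 type 1 taste probes, 0 of 13 type 2 taste probes and 0 of 3 formyl peptide probes were expressed. With a more lenient call, a signal positive and significant against background, 12 of the 34 were expressed, against 76.7% of all probes, with Taar8b, Taar6 and Taar1 as the added genes. With a call required on all 15 arrays, 5 were expressed, against 61.3% of all probes, namely Taar9, Taar7h, Taar7e, Taar7b and Taar5.

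**Figure D1:**
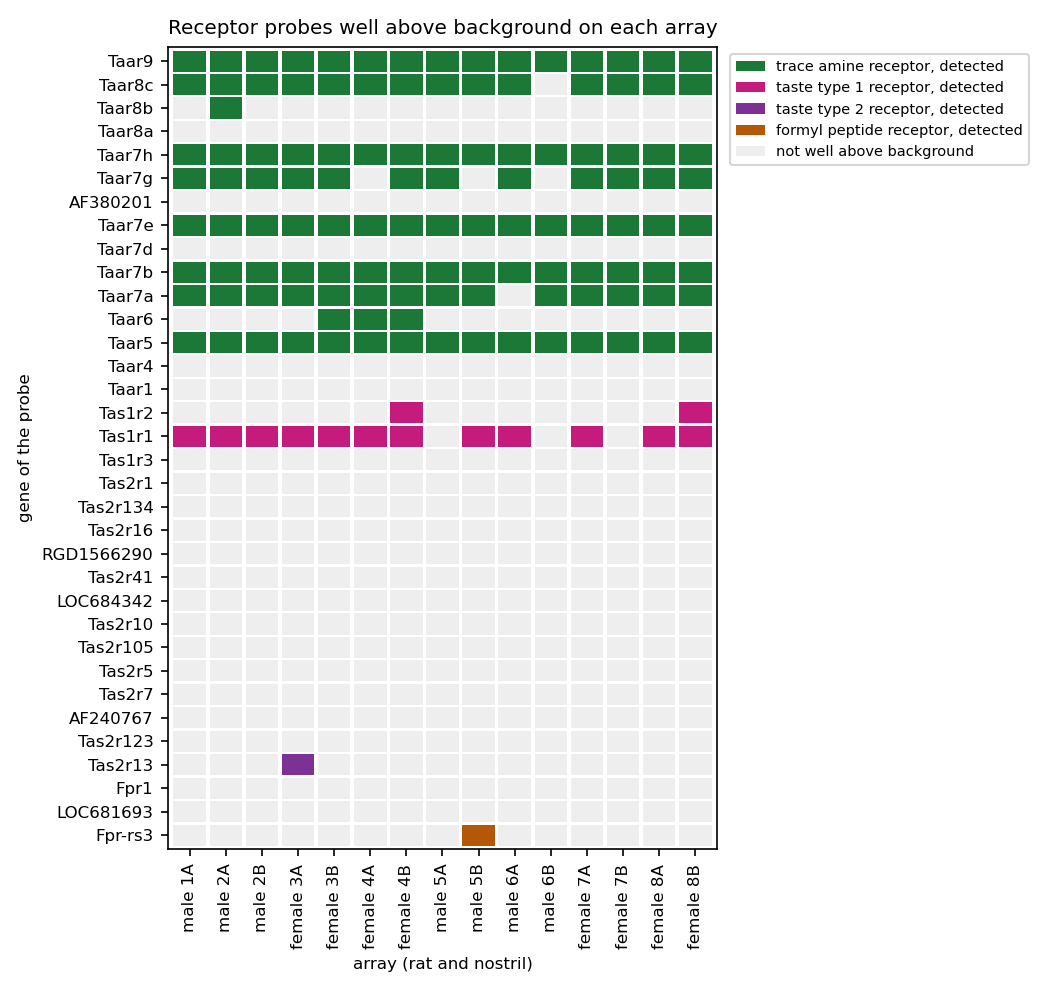
Detection of the 34 receptor probes (rows, by gene) on the 15 arrays (columns, by rat and nostril); a filled square is a probe well above background, colored by family. The Taar rows hold most of the filled squares, and the rows of the type 2 taste receptors are empty but for Tas2r13 on the array of female 3A.

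Along the cluster, expressed Taars were interspersed with Taars detected on 0 to 3 arrays. Taar9 was detected on 15 arrays and Taar8c on 14, while their neighbors Taar8b and Taar8a were detected on 1 and 0. In the Taar7 group, a branch enlarged in rodents, Taar7h, Taar7e and Taar7b were detected on 15 arrays, Taar7a on 14 and Taar7g on 12, while Taar7d and the transcript that the array names AF380201 were detected on 0. Towards the other end Taar6 was detected on 3 arrays, Taar5 on 15, and Taar4 and Taar1 on 0. Taar4 is known as a receptor for phenylethylamine and Taar5 for trimethylamine.

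**Figure D2:**
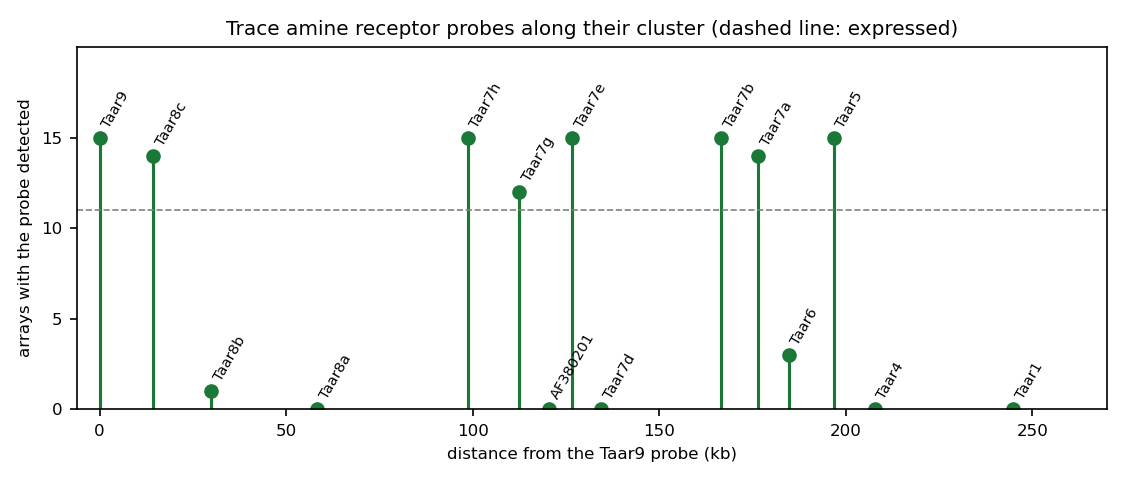
Number of the 15 arrays on which each Taar probe was detected (vertical axis) against its distance from the Taar9 probe in kb (horizontal axis); the dashed line marks 11 arrays, from which a probe was called expressed. The 8 expressed Taars are spread over the cluster from Taar9 to Taar5, with Taars detected on 0 to 3 arrays among them, and Taar4 and Taar1, at its end, are at 0.

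The gene named Gpr58 on the array, whose accession carries the name Taar2 in RefSeq (assembly GRCr8), lies between Taar4 and Taar1 and was not chosen by name or description. Its probe, at chr1:22031138-22031197, was detected on 15 arrays. Its log2 level lay between -1.60 in female 8A and 0.47 in female 4B. The transcript that the array names XM_220096 also lies between Taar4 and Taar1, was not chosen either, and was detected on 0 arrays.

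Signals below are given as multiples of the array median, so that a level can be followed across arrays; levels of different probes are not comparable. Taar7b lay between 5.12 and 9.49 in the 7 male arrays (median 6.61) and between 3.86 and 9.26 in the 8 female arrays (median 6.29). The highest array was male 1A and the lowest female 8B, 2.46-fold apart, and the sexes overlapped through most of the range. Taar7e lay between 1.31 and 2.51 in males (median 1.71) and between 0.925 and 2.54 in females (median 1.77). Its highest array was female 3B and its lowest again female 8B.

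Taar9 ranged from 0.407 to 0.982 in males (median 0.676) and from 0.405 to 1.55 in females (median 0.635). Taar5 ranged from 0.360 to 0.873 in males (median 0.551) and from 0.276 to 1.25 in females (median 0.546). For both, female 3B was the highest array and female 8A the lowest, and the spread among females reached beyond that among males at both ends. Taar7h ranged from 0.258 to 0.697 in males (median 0.486) and from 0.256 to 0.939 in females (median 0.549).

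Taar8c, Taar7g and Taar7a missed detection on some arrays. Taar8c lay between 0.175 and 0.368 in males (median 0.305) and between 0.234 and 0.505 in females (median 0.381). Taar7g lay between 0.127 and 0.389 in males (median 0.250) and between 0.130 and 0.482 in females (median 0.258). Taar7a lay between 0.234 and 0.711 in males (median 0.382) and between 0.252 and 0.641 in females (median 0.460). The lowest signal that was called well above background stood, depending on the array, at 0.129 to 0.237 of the array median, so the lowest values of these genes touch the detection limit.

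**Figure D3:**
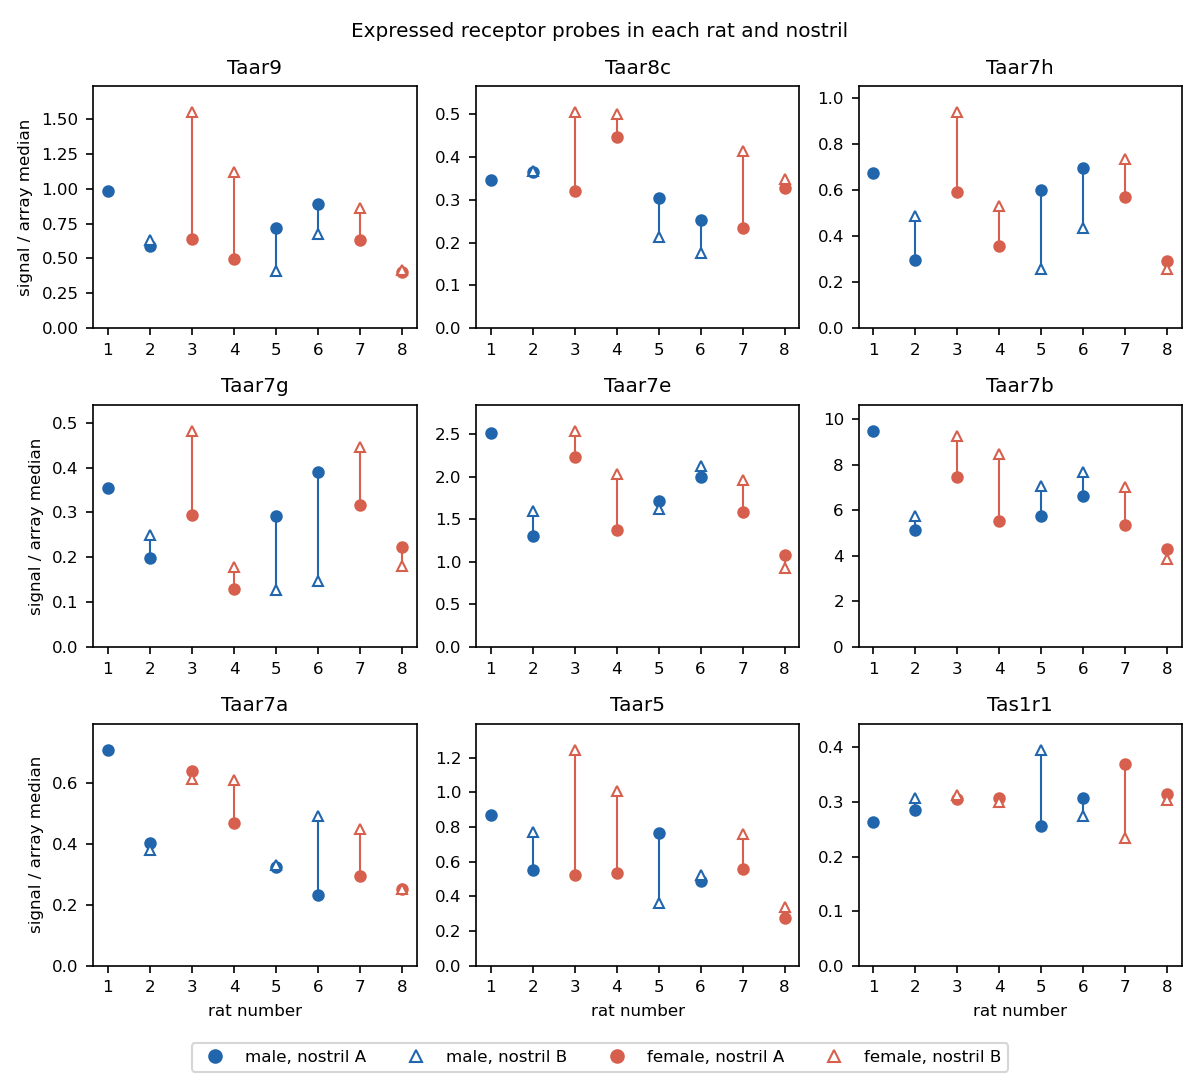
Signal over array median (vertical axes, each starting at 0) of the 9 expressed probes in the 8 rats (horizontal axes); filled circles are nostril A, open triangles nostril B, blue males and red females, and a line joins the nostrils of a rat. Female 3 has the highest array for 6 of the 8 Taars and male 1 for the other 2. Female 8 has the lowest for Taar9, Taar7h, Taar7e, Taar7b and Taar5, and males 5 and 6 for Taar8c, Taar7g and Taar7a. Tas1r1 stays between 0.235 and 0.396.

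Of the Taars that were not expressed, Taar6 and Taar8b were detected on some arrays. Taar6 was detected on 3 arrays, at 0.396 in female 3B, 0.221 in female 4A and 0.487 in female 4B, and lay between -0.0378 and 0.189 on the others. These 3 arrays are all those of slide 2, which also had the highest array medians, 76.2 to 83.4 intensity units; the other nostril of female 3, on slide 1, gave 0.164. Rat and slide cannot be told apart for Taar6. Taar8b was detected in male 2A alone, at 0.276 of the array median.

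Taar1, a receptor studied mainly in brain, stayed under the well-above-background call on all 15 arrays, with 0.0193 to 0.155 of the array median (median 0.0805). Under the lenient call it was positive on 13 of the 15 arrays, against 0 for Taar8a and 1 for Taar7d. A signal of Taar1 at this level was not separable from background by the stricter call. Taar4 lay between -0.0047 and 0.143.

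Among type 1 taste receptors, Tas1r1 was expressed, on 12 arrays, with 0.255 to 0.396 in males (median 0.285) and 0.235 to 0.370 in females (median 0.307). It was not detected in male 5A, male 6B and female 7B. Its shared partner Tas1r3 was detected on 0 arrays, at -0.0563 to 0.0996 of the array median. Tas1r2, the sweet receptor subunit, was detected in female 4B (0.304) and female 8B (0.691) and lay at or below 0.146 elsewhere. The other nostril of each of these rats gave 0.112 and 0.0438.

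No type 2 taste receptor was expressed. The 12 probes that were never detected lay between -0.105 and 0.1004 of the array median over all arrays, below the limits given above. Tas2r13 was detected in female 3A alone, at 0.291. The genes never detected were Tas2r1, Tas2r134, Tas2r16, RGD1566290, Tas2r41, LOC684342, Tas2r10, Tas2r105, Tas2r5, Tas2r7, AF240767 and Tas2r123, as the array names them. Several are named otherwise in RefSeq, such as Tas2r119 for Tas2r1 and Tas2r114 for Tas2r5.

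No formyl peptide receptor was expressed. Fpr1, the receptor of neutrophils, lay between -0.118 and -0.0099 of the array median, with 1 array left out because its spot was marked as an outlier. LOC681693 lay between -0.018 and 0.154 and was detected on 0 arrays, though positive and significant on 9 under the lenient call. Fpr-rs3 was detected in male 5B alone, at 0.482, and the other nostril of that rat gave 0.003.

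Genes that work with these receptors, or mark the cells that carry them, were read from lists, with 65.1% of all probes expressed as the background for each count. Of 9 probes of the taste and chemosensory cell list, 7 were expressed, among them Trpm5 (the cation channel of taste cells), Plcb2 (a phospholipase), Itpr3 (a calcium channel) and Gnat3 (gustducin). Of 25 neutrophil and phagocyte probes 15 were expressed, including S100a8, S100a9, Itgam and Ncf1, and Csf3r and Il8rb were detected on 0 arrays and Mpo on 2. Of 8 probes for enzymes that make or break down amines, 7 were expressed, among them Ddc, Hdc, Odc1 and Maoa, which act on aromatic amino acids, histidine, ornithine and monoamines. Of 5 vomeronasal probes 4 were expressed, of 4 red blood cell probes 3, and of 3 ciliated respiratory probes 2, Foxj1 and Tekt1.

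The number of receptor probes detected was 9.5 ± 0.707 per rat in females and 8.5 ± 1.08 in males (SD, n = 4 rats each, nostrils averaged). An exact two-sided permutation test over the rats gave p = 0.257, and the smallest p it can give with 4 rats against 4 is 0.0286. The difference of 1 probe was 0.125 under the lenient call and 0.5 without male 6. Single arrays ranged from 6 in male 6B to 11 in female 4B.

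The next question was whether the sexes differ. The 9 expressed members were also those detected on at least 7 arrays, which made them testable. Females minus males ranged from -0.21 to 0.39 (log2) over the 9, with 4 higher in females and 5 lower. This split moved with single rats: all 9 were higher in females without female 8 (0.017 to 0.44), 7 without male 1, and 2 without female 3 or without male 5. The largest difference was that of Taar8c, at -1.41 ± 0.271 in females and -1.80 ± 0.377 in males (log2, SD, n = 4 rats each). That is 0.39 ± 0.21 (SE) or 1.31-fold higher in females, with an adjusted p of 0.374 by limma. It was 0.24 without male 6 and 0.11 with another background correction (normexp). The nostril values of the sexes overlapped.

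By limma, 0 of the 9 members passed a false discovery rate of 1%, where 0.0434% of all tested probes did, and 0 passed an unadjusted p of 0.05, where 17.1% did. Adjusted p-values of the members lay between 0.374 and 0.997. Within slide 1, which held both sexes, 4 members turned direction: females minus males was -0.16 for Taar8c, 0.36 for Taar7e, 0.19 for Taar7b and 0.42 for Taar7a, against 0.39, -0.21, -0.18 and -0.0031 over all slides. The slide 1 values rest on 1 female array. A p that misses the threshold does not show equal levels in males and females.

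The olfactory neuron list had a median difference of 0.090 between the sexes over 19 tested probes, 0 past the threshold, beside 0.0092 over all probes. Of the 19, 16 were higher in females, against 14400 of all 27625. These are probes rather than genes: Gnb1 had 5 of them, Gnal 3, and Cngb1 and Pde1c 2 each. Omp (-0.0066), Rtp1 (-0.021) and Reep1 (-0.18) were lower in females. The taste and chemosensory list had a median of -0.12 over 7 probes, the neutrophil and phagocyte list -0.16 over 15, and the amine enzyme list 0.016 over 7, each with 0 past 1%. The median was 0.31 for the sustentacular list (3 probes), 0.14 for ciliated respiratory epithelium (2 probes), -0.042 for the vomeronasal list (4 probes) and -1.94 for the red blood cell list (3 probes), again with 0 past 1%.

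The nostrils of the same rat were compared next. Taar7b was higher in nostril B in 6 of 7 rats, the exception being female 8, with a mean difference of 0.26 ± 0.076 (SE, log2). Its unadjusted p by limma was 0.00692 and its adjusted p 0.781. Nostril B was higher on average for 7 of the 9 members, and the median difference was 0.21 over the 8 expressed Taars, 0.12 over 774 OR probes and 0.0099 over all probes. The OR median was higher in nostril B in 6 of 7 rats. Over the members, the differences ranged from -0.13 for Taar7g, which was not detected on 3 of the arrays, to 0.34 for Taar5. Both ends moved with single rats: Taar5 was at 0.19 without female 3 and 0.58 without male 5, and Taar7g turned to 0.049 without male 5 and 0.082 without male 6. With normexp all 9 were higher in nostril B (0.034 to 0.16), and Taar7b was at 0.12. The median over all probes was not computed with normexp, so this count cannot be read as particular to the members.

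By limma with rat as a block, 0 of the 9 passed a false discovery rate of 1%, as was true of all tested probes (0%), and 1 passed an unadjusted p of 0.05, against 5.89% of all probes. The number of the 8 expressed Taars higher in nostril B varied between rats. In female 4 and female 7 it was 8, in male 2 and female 3 it was 7, in male 6 and female 8 it was 4, and in male 5 it was 2. In the same order of rats, the OR median differed by 0.40, 0.13, 0.014, 0.23, 0.23, -0.021 and 0.022. The Taars of a rat share its arrays, so these counts are not of independent values. The nostrils of female 3 lay on different slides, so nostril and slide cannot be told apart in that rat; those of each other rat shared a slide.

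**Figure D4:**
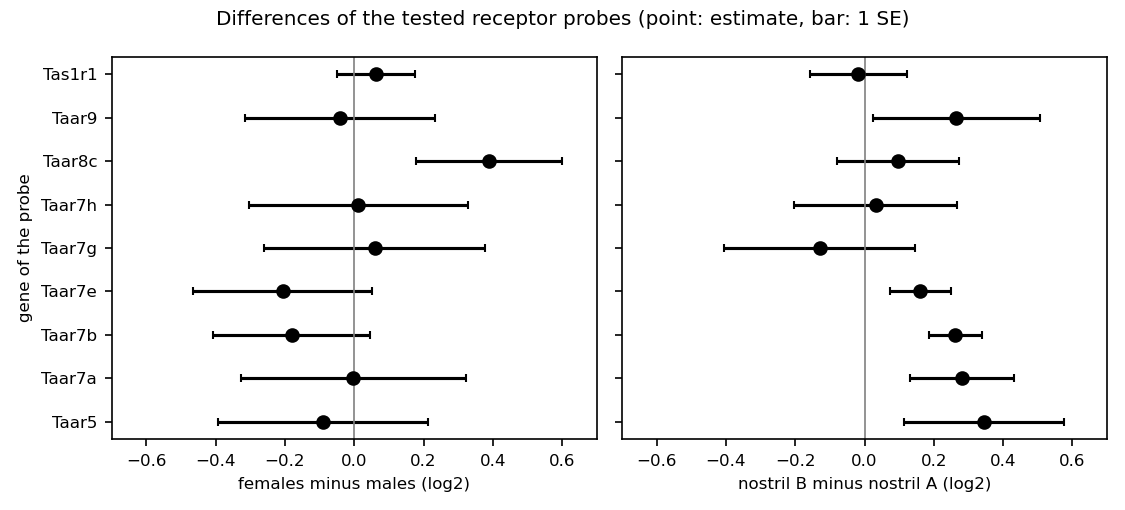
Differences on the log2 scale for the 9 tested probes (vertical axis): females minus males at the left, nostril B minus nostril A at the right; points are limma estimates and bars 1 SE. Taar8c stands farthest from 0 between the sexes, at 0.39, and Taar5 between nostrils, at 0.34, and no probe passed the threshold in either comparison.

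Rats of the same sex were then compared, with the difference between nostrils as the error. For Taar7e the rat means were 1.33, 0.53, 0.74 and 1.04 (log2) in males 1, 2, 5 and 6 and 1.25, 0.74, 0.82 and -0.0042 in females 3, 4, 7 and 8. For Taar7b they were 3.25, 2.44, 2.68 and 2.83 in males and 3.05, 2.78, 2.62 and 2.02 in females, in the same order. In both genes male 1 and female 3 were the highest of their sex and male 2 and female 8 the lowest. Across the sexes, between male 1 as the highest rat and female 8 as the lowest, the fold was 2.52 for Taar7e and 2.33 for Taar7b.

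By limma's F-statistic, Taar7e (F = 10.6, adjusted p = 0.0149) and Taar7b (F = 6.37, adjusted p = 0.0396) passed a false discovery rate of 5%, as did 16.1% of all probes. None of the 9 passed 1%, against 2.79% of all probes, and 3 passed an unadjusted p of 0.05, against 37.1%, Taar7a being the third. The median SD within rats was 0.419 over the 8 Taars, 0.365 over 774 OR probes and 0.116 over all tested probes. Tas1r1 had the smallest F of the 9, 0.150, and was not detected on 3 arrays, so that its rat means lay near the detection limit.

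The calls changed when single rats were left out. Without female 8, 0 members passed 5%, without male 2 or without female 3 only Taar7e did, and without female 4 Taar7e passed 1% (adjusted p = 0.00684). With slide as a block, which compares rats of 1 sex within slides, 0 passed 5% (F = 10.2 and adjusted p = 0.155 for Taar7e, F = 5.76 and adjusted p = 0.211 for Taar7b), while calls at 1% over all probes went from 768 to 1. Male 1 had a single array and added nothing to the spread within rats.

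Over the lists, the same test called, beside 2.79% of all probes at 1%, 2 of 3 red blood cell probes, Hbb and Alas2. It also called 2 of 4 probes of the vomeronasal list, for Trpc2 and Gnao. With slide as a block none of these 4 passed 1%, and Trpc2 passed 5% (adjusted p = 0.0185). Without that block, none passed 1% of the olfactory neuron (19 probes), taste and chemosensory (7), neutrophil and phagocyte (15), amine enzyme (7), sustentacular (3) and ciliated (2) lists. At 5%, the level of the Taar calls, and with the brightest probe of each gene, Cnga4 (adjusted p = 0.0288), Ric8b (0.0292) and Pou2f3 (0.0438) of these lists passed by limma's F-statistic. With slide as a block they did not. The part of tissue composition in the Taar differences was not tested.

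The rat means of several Taars were related to each other. Over the 8 expressed Taars, female 3B was the highest array for 6 of them and male 1A for the other 2, and the lowest median ranks of 15 were those of female 8A (14), female 8B (13.5) and male 5B (13.5). Taar7b served as the reference, and its mean per rat was related to that of 7 other Taars and 4 other measures, and so were the nostril differences, which made 22 relations. This choice was made with the values known. Rats of slides 1 and 2 and rats of slides 3 and 4 numbered 4 each, too few for a relation within either set, so the rat means were also centered within each set.

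Taar7b and Taar7e correlated over the 8 rats with r = 0.979 (adjusted p = 0.00273, exact permutation test) and Spearman's rho 0.929 (adjusted p = 0.0335). Without the 2 rats farthest from the median of Taar7b, male 1 and female 8, r was 0.932. At any placement, their probes matched at no more than 12 of 20 bases in a row, and those of Taar7b and Taar9 at 15 of 20. Taar7b and Taar9 correlated with r = 0.927 (adjusted p = 0.0153, exact permutation test) and rho 0.905 (adjusted p = 0.0335), and r was 0.794 without those rats.

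For Taar7a, Taar7h and Taar5, r was 0.858, 0.854 and 0.839, with adjusted p of 0.0270, 0.0270 and 0.0305 by the exact permutation test. Spearman's rho was 0.714, 0.833 and 0.690, with adjusted p of 0.153, 0.0677 and 0.153, so the rank relation did not pass. Without male 1 and female 8, r was 0.610, 0.678 and 0.326. Leaving out these rats also narrows the range of Taar7b, so the lower r cannot show that a relation rests on them. Taar7g gave r = 0.494 (adjusted p = 0.438, exact permutation test) and Taar8c r = 0.049 (adjusted p = 0.910). Taar8c was lowest in males 5 and 6 and highest in female 4, an order unlike that of the other Taars.

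Several of these calls were lost when 1 rat was left out, in part with little change in r. For Taar9, Taar7h, Taar7a and Taar5, r was 0.839 to 0.927 over all 8 rats. Without female 8 it fell to 0.601 to 0.846, and without female 3 it was 0.815 to 0.919, each with an adjusted p above 0.05 (exact permutation test). Taar7h also lost its call without male 2 (r = 0.840), Taar7a without male 1 (r = 0.782), and Taar5 without male 1 (r = 0.797) and without female 4 (r = 0.848). In the last case r rose, so a lost call does not by itself show that a relation rests on that rat. With the rat means centered within the sets of slides, r was 0.98 for Taar7e, 0.931 for Taar7a, 0.905 for Taar9, 0.85 for Taar7h and 0.813 for Taar5, each with a p, adjusted over these 11 relations, under 0.05, and -0.574 for Taar8c (adjusted p = 0.202, exact permutation test within sets). The relation with Taar7e stayed past 5% without any 1 rat, at r from 0.953 to 0.987.

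The 4 other measures were Gpr58, the OR median, Nqo1 and Omp. Gpr58 (Taar2), of the same cluster, gave r = 0.851 and rho 0.833 (adjusted p = 0.0271 and 0.0677, exact permutation test), and r was 0.508 without male 1 and female 8. The median of the tested OR probes gave r = 0.860 and rho 0.762 (adjusted p = 0.0271 and 0.116, exact permutation test), and r was 0.678 without those rats. Nqo1, an enzyme known to mark neurons of the dorsal zone of the epithelium, where most Taars are known to be made, gave r = 0.872 and rho 0.905 (adjusted p = 0.0270 and 0.0335, exact permutation test), and r was 0.945 without them. Omp, made by mature neurons of every zone, gave r = 0.379 (adjusted p = 0.531, exact permutation test), a value that ran from 0.038 without female 8 to 0.575 without male 1 and was 0.594 with quantile normalization and 0.639 centered within the sets of slides. Without female 8, r was 0.639 for Gpr58, 0.704 for the OR median and 0.783 for Nqo1, and without female 3 it was 0.838, 0.853 and 0.860, with each adjusted p above 0.05, as also without male 2 (0.846, 0.857 and 0.861). Centered within the sets of slides, r was 0.852 for Nqo1, 0.812 for the OR median and 0.799 for Gpr58 (adjusted p = 0.0477, 0.0709 and 0.0740, exact permutation test within sets), so the latter calls were lost.

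Nqo1 was highest in female 3 (4.23 on the log2 scale) and lowest in female 8 (3.11), and the OR median was 0.28 and -0.34 in the same rats. Omp varied by 0.35 over all 15 arrays. Neither Nqo1 nor the OR median was manipulated or measured apart from these arrays, and what share of the Taar differences goes with them was not tested.

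**Figure D5:**
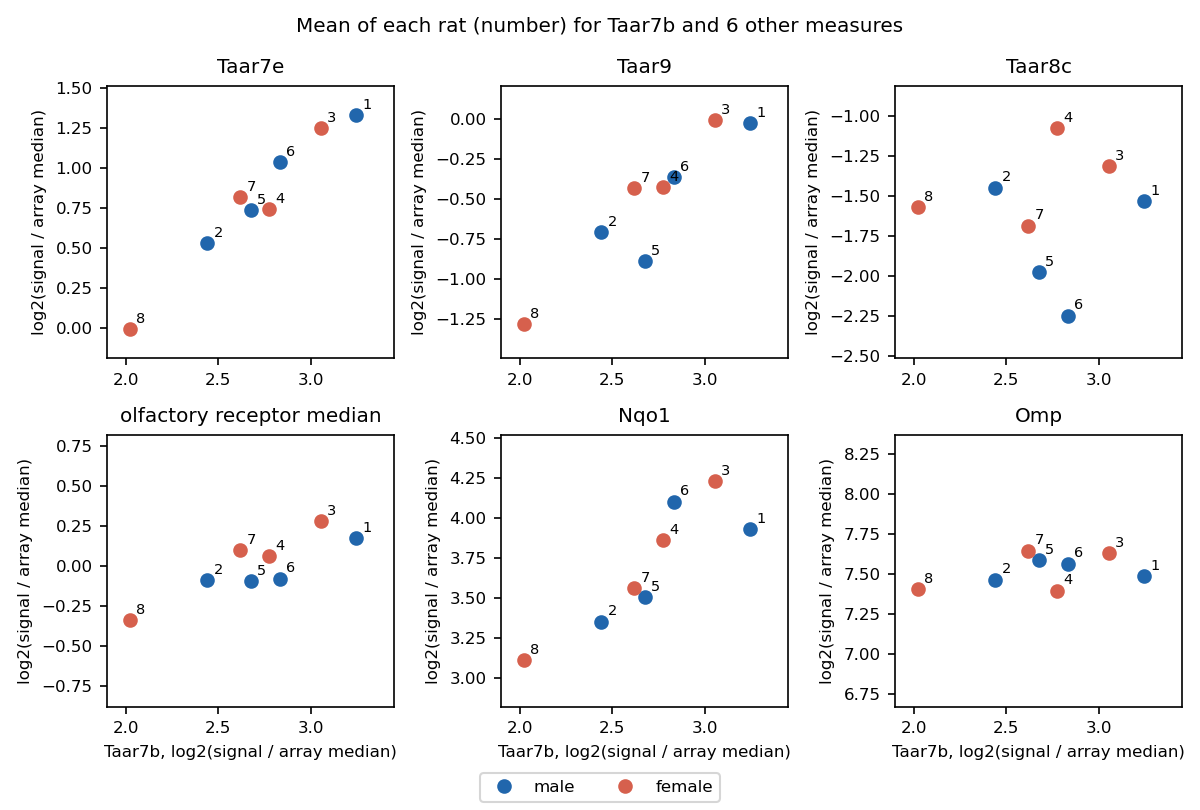
Mean of each rat for Taar7b (horizontal axes) against 6 other measures (vertical axes, all spanning the same range), in log2 of signal over array median; numbers are rats, blue males and red females. Taar7e and Taar9 rise with Taar7b from female 8 to male 1 and female 3, Taar8c does not, and Omp is nearly level.

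The same relations were computed between nostrils of a rat. For the differences B minus A over 7 rats, Taar7b and Taar7e gave r = 0.827 (p = 0.0274, adjusted p = 0.0669, exact permutation test) and rho 0.75 (adjusted p = 0.153), with the same sign in 6 of 7 rats. Without the 2 rats farthest from the median of Taar7b, r was 0.045. That cut also narrows the range of Taar7b, so it cannot show that the relation rests on them. With normexp r was 0.284. Taar7b and the OR median gave r = 0.770 (adjusted p = 0.0860, exact permutation test) and rho 0.821 (adjusted p = 0.116), and r was 0.221 without those rats and turned to -0.363 with normexp. The other 9 relations lay between r = -0.296 for Omp and 0.47 for Nqo1, and none of the 11 passed an adjusted p of 0.05.

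The probes whose mean per rat was most like that of Taar7b were counted as a description. Of the 20 with the highest r among 27574 tested probes, 19 were OR probes and the other was Taar7e, with r from 0.954 to 0.986. The first were Olr1405 (r = 0.986), Olr285 (0.979), Taar7e (0.979) and Olr439 (0.974). OR probes made up 2.81% of all tested probes, 92% of the nearest 50 and 78% of the nearest 100. These values share the arrays, their scaling and 8 points.

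By nostril differences, over 7 points, the list was another. Of its 20 nearest probes 1 was an OR probe and 0 were Taars, and of its nearest 100 there were 9 OR probes. The lists of 100 shared 4 probes, which is 4% of each, all of them OR probes.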

How the data were processed

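RNA of olfactory epithelium, labeled with Cy3, had been hybridized by the authors to 15 Agilent 4x44K arrays of 60-mer probes, 1 sample per array. The deposited intensities are those the authors extracted with Agilent Feature Extraction 9.5.1.1, background-subtracted and not scaled between arrays, with build rn3 for positions. The authors also deposited a ratio table, which holds each signal divided by its array median and then by its probe median; recomputing them this way for 19037 probes gave a value within 2% for 100%, and the table served as an alternative.

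Spots flagged as outliers (non-uniform or population) were left out. Signals were divided by the array median, raised to a floor of 0.1 of it (-3.32 in log2) and log-transformed, so values at the floor have no order. Detection was the software's well-above-background call, and a probe was expressed from 11 of 15 arrays, the study's rule. Probes detected on at least 7 arrays were tested with limma 3.58.1 (R 4.3.3) by two-sided tests, adjusted after Benjamini-Hochberg over all of them: the sexes on rat means (27625 probes), nostrils with rat as a block and rats of 1 sex by the F-statistic (27574 probes). Relations used exact permutations over rats, adjusted over the 22 relations computed. Scripts were tested on simulated data. By its barcode each array belongs to 1 of 4 slides, and slide was tried as a block.

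Receptor names matched 26 of 34 accessions in RefSeq (GRCr8). Every probe tested among the receptors is described with its values, the others by name and number of arrays. From each list, genes past 1% in some comparison are named, otherwise the first 4 with a tested probe. Other genes were named after their values were seen: Omp, Nqo1, Gpr58, XM_220096, Csf3r, Il8rb, Mpo, Gnb1, Cngb1, Pde1c, Rtp1, Reep1, Ric8b and Pou2f3. Members and lists were chosen with earlier results of these data known. Left and right nostril and the supplier of each rat were not analysed here, and the number of rats limits the precision.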

Additional observations from a re-analysis of the deposited data

Results flagged for a closer look

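Over the arrays of each sex, 7 of 68 sets of receptor values (34 probes in 2 sexes) had a highest or lowest array set apart from the others by Dixon's criterion. Chance reaches it in about 1 in 20 sets of independent, normally distributed values. The nostrils of a rat are not independent, so the 7 sets cannot be weighed against that rate. All values are signal over array median. Fpr-rs3 in male 5B stood at 0.482, with the other 6 male arrays at or below 0.033. Tas2r13 in female 3A stood at 0.291, with the other 7 female arrays at or below -0.0207. Tas1r2 in female 8B stood at 0.691, with the next female array at 0.304, and Tas1r1 in male 5B at 0.396, with the next male array at 0.307. Each of these 4 probes has a single spot per array, and none was set apart in the other nostril of the same rat, so a repeat within the animal is lacking. Tas1r3 in male 1A (0.0996), LOC684342 in male 1A (0.0466) and AF380201 in female 7B (-0.0815) were not well above background on these or any other arrays.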

How the results depend on the processing

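The 9 members tested for sex and for nostril gave 0 calls at 1% under every alternative run, which for sex included the methods' test on the same rat values. For members expressed, requiring 15 of 15 arrays gave 5, and the other detection alternatives gave 9 to 12. Members past 5% among rats of 1 sex, 2 in the main setting, numbered 1 with normexp background correction, 1 with the deposited ratio table, 1 with no filter on dim probes and 0 with slide as a fixed block; leaving out 1 rat gave 0 to 3 at 5% and 0 to 1 at 1%. Taar8c, 0.39 higher in females in the main setting, was at 0.11 with normexp, at -0.16 with slide as a fixed block and at -0.16 within slide 1, where Taar7e (0.36), Taar7b (0.19) and Taar7a (0.42) turned the other way. With normexp, the relation of Taar7b to Taar8c over rats turned to -0.121, those of nostril differences turned to -0.456 for Taar9, -0.344 for Taar8c, -0.511 for Taar7h, -0.588 for Taar7g, -0.314 for Taar7a, -0.405 for Taar5, -0.637 for Gpr58, -0.363 for the OR median and 0.695 for Omp, and the calls over rats for Taar7h (r = 0.814) and Gpr58 (r = 0.748) were lost; the cause was not tested. Leaving out 1 rat moved r with Taar8c over rats from -0.080 to 0.205, and r of nostril differences from -0.003 to 0.525 for Taar5, from -0.006 to 0.638 for Nqo1 and from -0.437 to 0.062 for Omp. Centering the rat means within slides 1 and 2 and within slides 3 and 4, a choice made after seeing the data, turned r with Taar8c to -0.574 and lost the calls for Gpr58 (r = 0.799) and the OR median (r = 0.812). Members detected per rat differed by 0.125 between the sexes under the lenient call and by 0.5 to 1.33 without 1 rat. Of 443 values recomputed, 382 kept their direction and side of the threshold or, for counts of members, moved little. Such counts were past 5% between rats of 1 sex, from 2 to 3 without male 6, and expressed, from 9 to 12 with the lenient detection rule. Another 34 kept their direction and lost their call, 17 turned direction, and 9 counts of members moved further. In 1 case a call was gained: the relation of nostril differences of Taar7b with Taar7e passed with the 75th percentile scaling (r = 0.853). With normexp that relation fell from r = 0.827 to 0.284. No paired analysis was possible between the sexes because males and females share no replicate number. Signal over background limits what can be said of the 25 members that were not expressed, of which 3 passed on 11 arrays or more when a positive and significant signal was enough.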
